A study of Camponotus floridanus with 15 samples.

Results

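Whole-body RNA of the carpenter ant *Camponotus floridanus* was compared between the stages after hatching that take food and the pupae. The comparison was set by stage alone: 7 libraries of feeding stages against 6 libraries of pupae, 13 of the 15 libraries of the series, with the 2 embryo libraries left out. The feeding stages were instar 1 larva, instar 4 larva and minor with 2 libraries each, and male with 1. The pupae were early pupa and the late pupae of minors and of majors, with 2 libraries for each of these 3 groups. Workers of this species come in a small caste, the minors, and a large one, the majors. The labels give no age, colony or genotype for any group, and they give minor and male no larval or pupal stage, so both are called adults here. No adult major was set beside the major pupae, and no pupae labelled as male beside male. The caste of the larvae and of the early pupae is not given in the labels. The animals were kept in laboratory nests that received sugar water and Bhatkar-Whitcomb diet, an egg- and honey-based food for laboratory ants.

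In ants the larvae are fed by workers and put on nearly all of the body mass of the individual, and adults take liquid food and share it. A pupa takes no food: it lives on stores laid down by the larva while larval tissue is broken down, adult organs are built, and the cuticle of the adult is laid down, hardened and darkened. Feeding status therefore comes from the general biology of ants and not from the labels. Growth, metamorphosis, cuticle formation and behaviour separate the same libraries, and feeding cannot be told apart from them. Sex and caste are unevenly placed too: libraries labelled male are among the feeding stages alone, and those labelled major among the pupae alone.

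The files list levels in RPKM, reads per kilobase of gene and per unit of sequencing depth, for 18979 gene IDs. They do not pair these IDs with gene names, and none (0) matched the 14020 genes of the RefSeq table for this species, so genes are given by ID, no function is stated, and tissue markers could not be looked up. The divisors behind the values, recovered from the steps that single reads leave in low values, ran from 16910000 reads in instar 1 larva replicate 2 to 34150000 in minor replicate 1. At these depths 3 reads on 1000 nt of gene are worth 0.177 and 0.0879 RPKM. The sum of RPKM over all genes ran from 204206 in instar 4 larva replicate 1 to 402812 in instar 1 larva replicate 2, so a shift of all genes between libraries is part of the deposited scale. Counts are for that reason given on the deposited scale, after each library was divided by its median ratio to the others (called rescaled), and for genes called in the same direction under both scalings. The labels do not state whether replicates are separate colonies, animals or preparations, so the spread behind the p-values may be technical and covers these samples alone. In whole-body RNA, fewer cells of a type and less RNA per cell cannot be told apart.

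Many genes differed between the feeding stages and the pupae. Under both scalings 1814 of 10551 tested genes (17.2%) were higher in the feeding stages and 713 (6.76%) were lower, at a limma adjusted p under 0.05 for the mean of the 4 feeding stages against the mean of the 3 pupal stages. On the deposited scale the counts were 3694 higher (35%) and 716 lower (6.79%), and the median gene differed by 0.40 log2 units. After rescaling they were 1819 higher (17.7%) and 1710 lower (16.6%). The excess of genes higher in the feeding stages was found on the deposited scale, where they made up 83.8% of the calls against 51.5% after rescaling.

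Which of the lists differed by more depended on the scale. The median log2 difference of the 1814 higher genes was 1.25 on the deposited scale and 0.85 after rescaling, against -1.18 and -1.58 for the 713 lower genes. A deposited difference of at least 4 log2 units was found for 61 of the lower genes (8.56%) and for 31 of the higher genes (1.71%), and for 0.872% of all tested genes. The typical higher gene stood at 10.2 RPKM in the feeding libraries and 3.16 in the pupal ones, and the typical lower gene at 1.1 and 6.77 RPKM (medians over genes of each gene's median over libraries). Both lists were chosen on these values and under both scalings. The lower list held 713 of 716 deposited calls but of 1710 rescaled ones, so the choice favoured large rescaled differences there. The higher list held 1814 of 1819 rescaled calls but of 3694 deposited ones. The sizes are therefore a description, and their order is in part set by the choice.

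Of the genes with no overlap between the 7 feeding and the 6 pupal libraries on the deposited scale, CFLOG000610.2 had the largest difference upwards. Its level was 160, 430 and 1393 RPKM in the lowest, median and highest feeding library, and 0.936, 2.85 and 34.2 RPKM in the pupal ones. The male library was the highest and both late pupa minor libraries, at 34.2 and 12.1 RPKM, lay above the other pupae. The log2 difference was 6.55 ± 0.44 (SE, limma adjusted p = 1e-07), and 6.08 after rescaling.

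CFLOG001169.1 was the next. It stood at 54.3, 987 and 2132 RPKM in the lowest, median and highest feeding library and at 2.56, 9.1 and 45.7 RPKM in the pupae. The larvae held 546 to 2132 RPKM and minor 987 and 231, and the male library, at 54.3 RPKM, was only just above early pupa replicate 1 at 45.7. Rescaling divides male by 1.697 and early pupa replicate 1 by 1.133. After it male lay below that pupal library, so this gene did overlap on the rescaled values. The log2 difference over all stages was 5.36 ± 0.54 (SE, limma adjusted p = 4.7e-06). Male alone differed from the pupae by 2.32 log2 units, and by 1.37 after rescaling.

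CFLOG001170.2 was close to silent outside the pupae. It was listed at 0 in instar 4 larva replicate 1 and in male, and its highest feeding level was 0.927 RPKM in instar 1 larva replicate 2. The pupae held 166, 358 and 497 RPKM (lowest, median and highest library), and late pupa minor held the lowest levels (166 and 252 RPKM). The log2 difference was -8.05 ± 0.22 (SE, limma adjusted p = 4.4e-11).

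CFLOG027766.1 showed the same order. Feeding libraries lay between 0.295 and 3.5 RPKM and pupal libraries at 241, 508 and 1848 RPKM (lowest, median and highest), with early pupa above the late pupae. The log2 difference was -7.87 ± 0.27 (SE, limma adjusted p = 2.5e-10). Of these 4 genes, CFLOG001169.1 alone missed the threshold in any of the alternatives run: taken over 1 mean per stage and after rescaling, its difference was 4.88 with an adjusted p of 0.096 in limma.

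**Figure D1:**
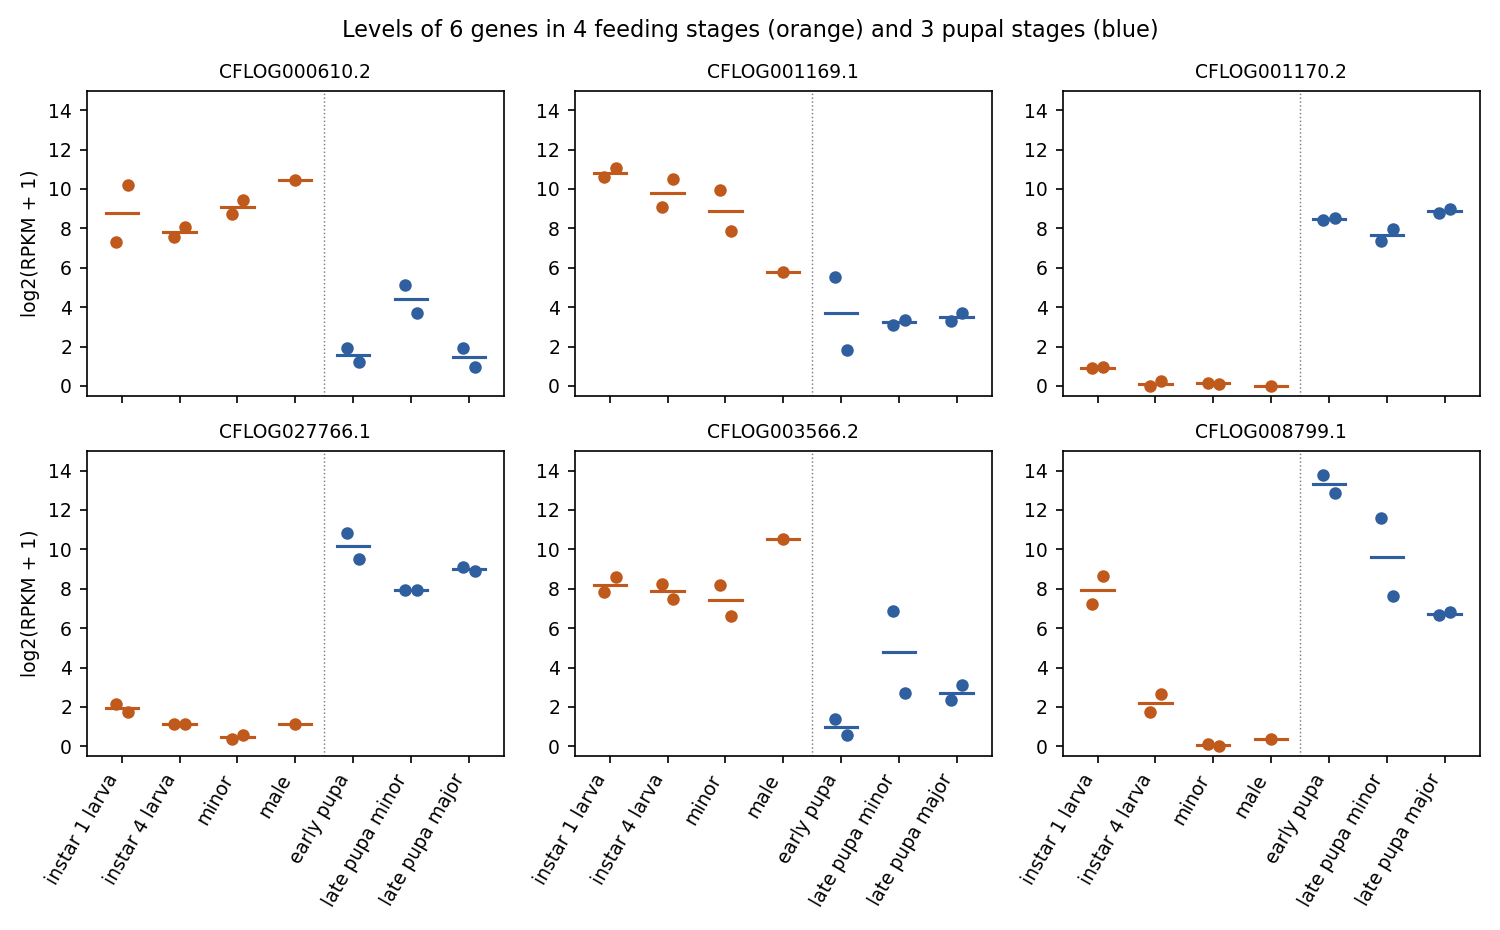
Levels of 6 genes as log2(RPKM + 1) on the y axis in 4 feeding stages (orange) and 3 pupal stages (blue); each point is 1 library and each bar the mean of a stage. On the deposited scale CFLOG000610.2, CFLOG001169.1, CFLOG001170.2 and CFLOG027766.1 do not overlap between the feeding and pupal libraries, though CFLOG001169.1 does after rescaling. CFLOG003566.2 (late pupa minor replicate 1 at 116 RPKM) and CFLOG008799.1 (instar 1 larva at 151 and 405 RPKM) overlap.

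The test above takes the spread between replicates of a stage, so it speaks of these 7 stages and not of feeding stages and pupae in general. When the spread between stages entered the test the lists were much shorter. With 1 term for feeding against pupae over the 13 libraries, 432 genes were higher (4.09%) and 258 lower (2.45%) under both scalings (limma). With 1 value per stage, 4 against 3, 37 genes were higher (0.351%) and 56 lower (0.531%). All 37 and all 56 were also in the lists of 1814 and 713. Of the spread between the 7 stages, the part between feeding stages and pupae had a median of 13.6% over genes after rescaling. Of the squares summed over all genes it was 33.0%, where genes with large differences weigh most. An average share of 16.7% is what 1 of 6 degrees of freedom stands for, and it is no yardstick for the median. The part between feeding stages and pupae reached 50% or more in 1502 genes (14.2%).

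A minority of the higher genes marked every feeding stage. After rescaling, all 4 feeding stage means lay above every pupal stage mean in 566 of the 1814 higher genes (31.2%), beside 6.06% of all tested genes; 3 of the 4 did so in 639 (35.2%) and 2 in 500 (27.6%). Among the 713 lower genes, all 3 pupal stage means lay above every feeding stage mean in 406 (56.9%), beside 6.19% of all tested genes. On the deposited scale the shares were 46.0% of the higher genes, beside 10.3% of all tested genes. For the lower genes they were 30.7%, beside 2.16%. The same stage means chose the lists, so their excess over all tested genes is in part set by that choice. By stage of highest rescaled level, minor led in 830 of the higher genes (45.8%, against 29.5% of all genes). Among the lower genes late pupa major led in 371 (52.0%, against 25.8%). On the deposited scale male led 762 of the higher genes (42.0%, against 34.9% of all genes) and late pupa major 330 of the lower ones (46.3%, against 19.0%).

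Genes whose libraries did not overlap at all were rarer still. Under both scalings every feeding library was above every pupal library in 168 genes (1.59%), and below in 87 (0.825%). On the deposited scale alone they were 307 (2.91%) and 91 (0.862%). Of the 168, 166 were also called higher, and all 87 were called lower. After rescaling the lower genes were led by late pupa major in 58 of 87 (66.7%, against 25.8% of all genes) and by early pupa in 16 (18.4%, against 36.9%). The rescaled level of the 168 higher genes was highest in instar 4 larva in 61 (36.3%, against 20.1% of all genes), in minor in 57 (33.9%, against 29.5%), in male in 34 (20.2%, against 25.5%) and in instar 1 larva in 16 (9.52%, against 24.9%). On the deposited scale the order differed, with 70 led by instar 1 larva, 59 by male, 20 by instar 4 larva and 19 by minor, while late pupa major still led 52 of the 87 lower genes. On the deposited scale 398 genes did not overlap, against 1417 without instar 4 larva and 959 without its replicate 1 alone, the library with the lowest RPKM total. With fewer libraries the rule is easier to meet, so part of such a rise comes from the rule. Leaving out any 1 library gave 404 to 959 genes.

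**Figure D2:**
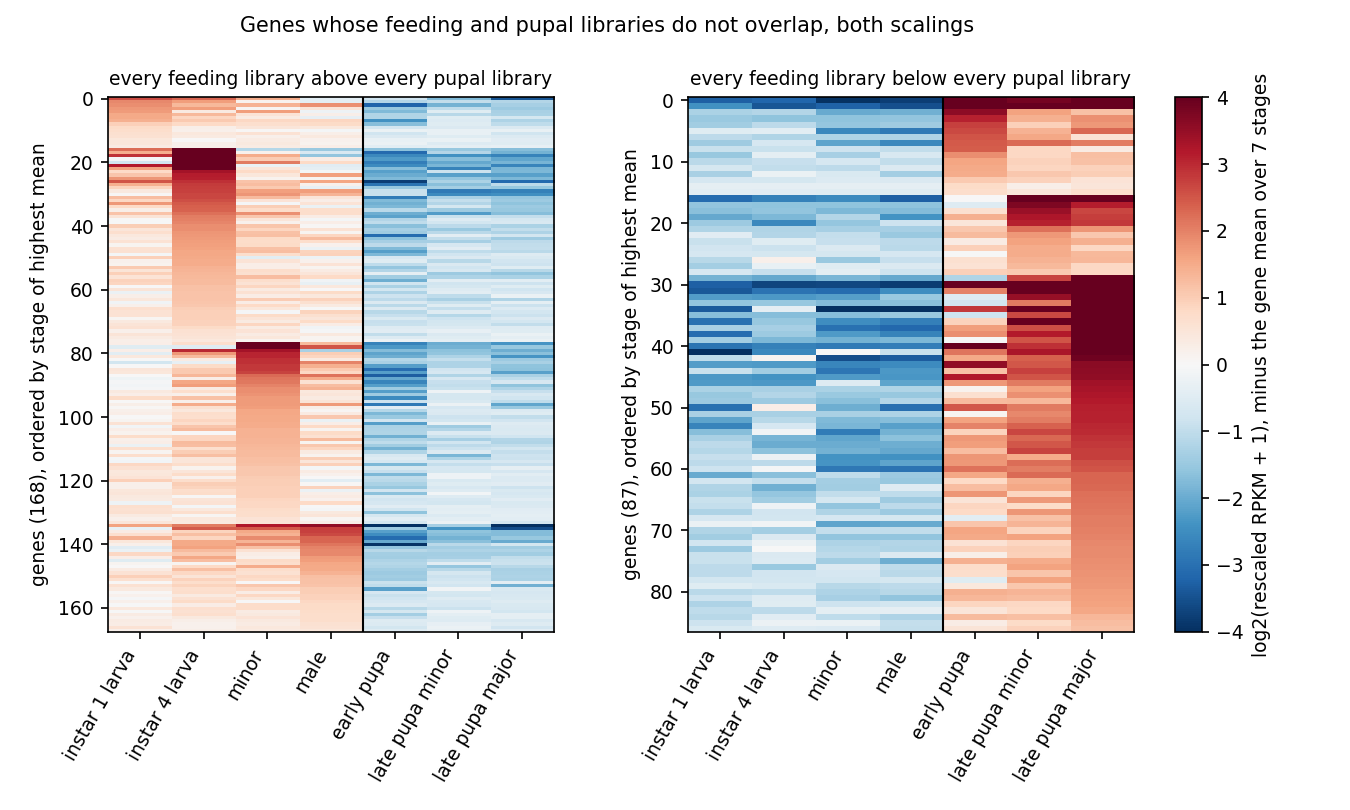
Rescaled stage means of the 168 genes (left) and 87 genes (right) whose feeding and pupal libraries did not overlap under both scalings; each row is a gene, each column a stage, and the colour gives log2(rescaled RPKM + 1) minus the gene's mean over the 7 stages, with values beyond 4 or -4 drawn at the end of the scale. On this rescaled scale the left panel breaks into blocks led by different feeding stages, and in the right panel 58 of 87 genes are highest in late pupa major.

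Each feeding stage was then set against the same 6 pupal libraries. The 4 comparisons share those pupae, so their lists are given side by side and not overlapped. Under both scalings minor had 1633 genes higher (15.5%) and 1211 lower (11.5%). Without minor replicate 2, 1285 genes were higher and 384 lower on the deposited scale, and 1461 and 932 after rescaling. Instar 1 larva had 1228 higher (11.6%) and 548 lower (5.19%), male 1048 (9.93%) and 360 (3.41%), and instar 4 larva 534 (5.06%) and 831 (7.88%). The balance of directions followed the scale. On the deposited scale instar 1 larva had 6193 genes higher (58.7%) and 556 lower (5.27%), where the median gene differed by 0.97 log2 units, against 1228 (11.9%) and 1529 (14.9%) after rescaling. For male the deposited counts were 2672 higher (25.3%) and 377 lower (3.57%) with a median of 0.69, against 1054 (10.3%) and 863 (8.39%) rescaled. The minor counts went from 1647 (15.6%) and 1221 (11.6%) to 2473 (24.1%) and 2225 (21.6%), and those of instar 4 larva from 538 (5.1%) and 835 (7.91%) to 1313 (12.8%) and 1412 (13.7%). Male has 1 library, whose spread was borrowed from the other groups, so its p-values hold no spread between males, and the filter of 1 RPKM in 2 libraries left out genes seen in male alone.

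**Figure D3:**
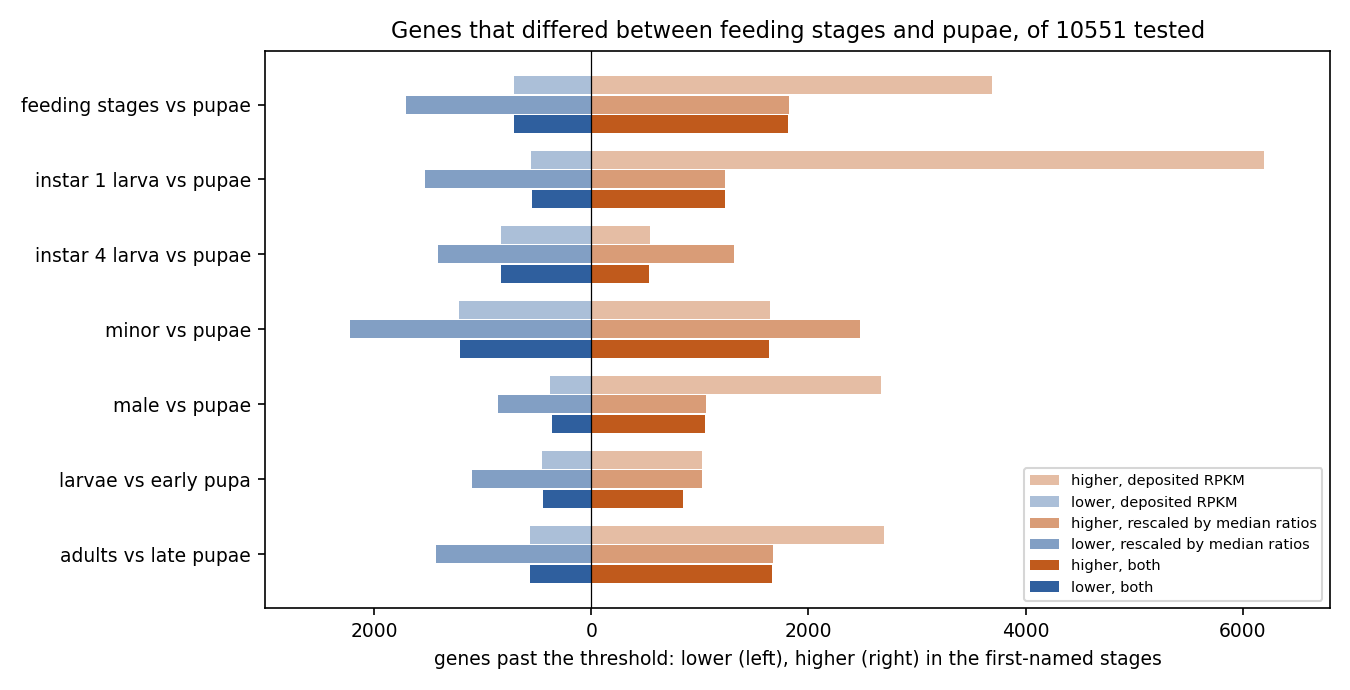
Genes past the limma threshold (adjusted p under 0.05) in 7 comparisons of feeding stages with pupae; the x axis counts genes, lower in the first-named stages to the left (blue) and higher to the right (orange), and the 3 bars of a comparison stand for the deposited scale, the rescaled values and both. The long bar of instar 1 larva on the deposited scale (6193 higher) shrinks to 1228 after rescaling.

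The genes named from single feeding stages had larger differences than those named from all 4 stages together, which the naming rules favour. Genes named from all 4 stages had to show no overlap of libraries on the deposited scale, and their difference is a mean over stages. In the larvae CFLOG000597.1 stood at 27116 and 33251 RPKM in instar 1 and at 28477 and 35739 in instar 4. The pupae held 27.4 to 70.4 RPKM, apart from late pupa major replicate 2, where it was listed at 0. The log2 difference from the pupae was 10.31 ± 0.82 in instar 1 and 10.39 ± 0.82 in instar 4 (SE, limma adjusted p = 7e-07 and 7.6e-07). In the adults the order was the opposite: minor held 0.385 and 0.411 RPKM and male 0.618, and minor differed from the pupae by -4.08 (limma adjusted p = 0.0021).

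In instar 1 larva CFLOG000609.2 had the largest difference upwards (log2 11.65 ± 0.55 SE, limma adjusted p = 9.8e-09). Its libraries held 5294 and 11071 RPKM, and the pupal libraries 0 to 3.24. Among the other feeding stages it stood at 1867 and 353 RPKM in instar 4 larva, 43.1 in male and 0.638 and 0.444 in minor. In instar 4 larva CFLOG002090.2 stood at 4193 and 8092 RPKM, against 0.0537 to 14.3 in the pupae (log2 difference 9.88 ± 0.57 SE, limma adjusted p = 2.7e-08). Instar 1 larva was at 5815 and 8032 RPKM, and the adults at 4.84 or below.

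Of the genes named from the adults, CFLOG006752.2 was high in minor and not in male, and the other 3 were high in both adult groups. CFLOG006752.2 stood at 9445 and 5716 RPKM in minor, against 0.241 to 1.34 in the pupae, 2.53 in male and 13.6 and 5.85 in instar 1 larva (log2 difference of minor from pupae 12.15 ± 0.38 SE, limma adjusted p = 1e-10). Instar 1 larva was higher than the pupae by 2.63 (limma adjusted p = 0.00011), and male differed by 1.12 (limma adjusted p = 0.1). CFLOG002738.2 stood at 536 and 6413 RPKM in minor and 457 in male, and at 0.29 or less in every pupal library (minor against pupae 10.68 ± 0.62 SE, adjusted p = 2.5e-08 in limma). CFLOG007130.2, named from male, was at 1343 RPKM there and at 2511 and 1153 in minor. Pupal libraries lay between 0 and 15.8 RPKM, highest in late pupa minor replicate 1, and the log2 difference of male was 9.48 ± 0.82 (SE, limma adjusted p = 2.8e-06). CFLOG022093.1 was at 622 RPKM in male and at 158 and 1215 in minor, and was listed at 0 in all 6 pupal libraries, so no fold is given.

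The genes lowest against the pupae were mostly those of the late pupae. CFLOG025650.1 held 36612 to 54390 RPKM in the 4 late pupal libraries and 3.11 and 1.42 in early pupa. It stood at 0.245 and 3.8 RPKM in instar 1 larva (log2 difference from the pupae -9.55 ± 0.52 SE, limma adjusted p = 2.5e-08). CFLOG001115.2 held 4194 to 11377 RPKM in late pupae and 2.05 and 4.77 in early pupa, and 0.27 and 0.326 in instar 1 larva (-8.9 ± 0.39 SE, adjusted p = 8e-09 in limma). In both genes early pupa lay far closer to instar 1 larva than to the late pupae.

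In instar 4 larva the lowest were CFLOG004599.2 and CFLOG027552.1. CFLOG004599.2 stood at 0.0697 and 0 RPKM there, against 64.4 and 38.7 in early pupa and 1234 to 3263 in late pupae (-9.37 ± 0.44 SE, limma adjusted p = 4.9e-09). It was still at 192 and 278 RPKM in minor and 308 in male, above early pupa. CFLOG027552.1 stood at 0.395 and 1.14 RPKM, against 5157 to 16386 in late pupae and 7.94 and 11.9 in early pupa (-9.21 ± 0.41 SE, limma adjusted p = 3.2e-09). Against both adult groups CFLOG008799.1 was the lowest, at 0.0912 and 0 RPKM in minor and 0.293 in male (-9.82 ± 0.75 and -9.52 ± 1.0 SE, limma adjusted p = 3.8e-07 and 1.5e-05). It was highest in early pupa at 14134 and 7454 RPKM, and ran down through late pupa minor (3070 and 199) to late pupa major (99.3 and 110). The second gene named from minor was CFLOG027766.1 (-8.57 ± 0.38 SE, limma adjusted p = 2.3e-09). The second from male was CFLOG005200.2, at 3.76 RPKM against 14485 to 47638 in late pupae and 16.7 and 10.2 in early pupa (-8.73 ± 0.53 SE, limma adjusted p = 1.3e-07).

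A pair of comparisons that share no library allowed the change into the pupa and the change out of it to be set against each other. They were larvae against early pupa (4 and 2 libraries) and adults against late pupae (3 and 4). In the adult comparison male has no male pupae beside it, and late pupa major no adult majors. Sex and caste therefore cannot be told apart there from leaving the pupa. Under both scalings larvae were higher than early pupa in 843 genes (7.99%) and lower in 447 (4.24%), and adults were higher than late pupae in 1668 (15.8%) and lower in 561 (5.32%). The deposited counts were 1023 (9.7%) and 457 (4.33%) for the larvae and 2692 (25.5%) and 567 (5.37%) for the adults. After rescaling they were 1020 (9.92%) and 1102 (10.7%) for the larvae and 1673 (16.3%) and 1433 (13.9%) for the adults. The medians of all genes on the deposited scale were 0.22 and 0.43.

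The same direction was found in both comparisons for more genes than the opposite one. Of the 843 genes higher in larvae, 374 were also higher in adults (44.4% of the larval list and 22.4% of the adult list, where 15.8% of all tested genes were higher in adults), and 19 were lower. Of the 447 genes lower in larvae, 170 were also lower in adults (38.0% and 30.3% of the lists, where 5.32% of all tested genes were lower), and 19 were higher. The 374 and 170 genes are 3.54% and 1.61% of those tested. Both comparisons come from 1 fit and share its estimate of each gene's spread. Fitted apart, each on its own libraries on the deposited scale, they shared 485 higher and 172 lower genes, with 35 and 40 in opposite directions, beside 505 and 176 in the common fit on that scale. The shared counts rest on both early pupa libraries: without replicate 1 they were 200 and 91 and without replicate 2 165 and 102, or 51.7% and 62.8%, and 51.4% and 45.9%, of the shorter larval lists.

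Sizes followed the direction as well. In adults against late pupae the 843 larval-higher genes had a median rescaled log2 difference of 0.58, and 72.6% of them were above 0, beside a median of 0.0 and 49.9% for all genes. The 447 larval-lower genes had a median of -0.89, with 19.2% above 0. In the other direction, the 1668 adult-higher genes had a median of 0.32 and the 561 adult-lower genes one of -0.8 in larvae against early pupa. Over 10198 genes, none of which is a replicate of another, the rescaled differences of the comparisons correlated at Pearson r = 0.38 and Spearman rho = 0.33.

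**Figure D4:**
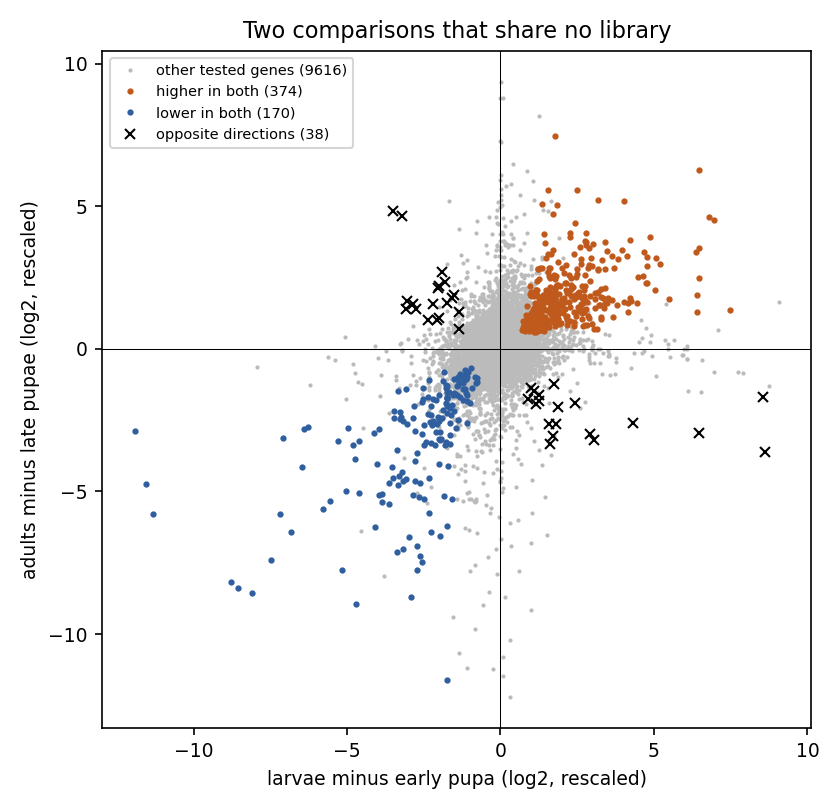
Rescaled log2 difference of each tested gene between larvae and early pupa (x axis) and between adults and late pupae (y axis), which share no library; each point is a gene, coloured where both comparisons called it in the same direction under both scalings (374 higher in orange, 170 lower in blue) and crossed where they called it in opposite directions (38). Grey points gather near 0, and some genes with large differences in one comparison have little in the other.

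The genes with the largest change shared by both comparisons included a pair already named. CFLOG000610.2 differed by 6.72 ± 0.68 between larvae and early pupa and by 6.83 ± 0.62 between adults and late pupae, and CFLOG001170.2 by -7.96 ± 0.34 and -8.21 ± 0.31 (log2 ± SE, limma adjusted p from 4.1e-10 to 1.3e-05). CFLOG003566.2 stood at 178 to 381 RPKM in larvae and at 1.66 and 0.487 in early pupa (log2 difference 7.05 ± 0.85 SE, limma adjusted p = 6.3e-05). Adults held 294 and 98 RPKM in minor and 1455 in male, and late pupae 4.06 to 7.61 apart from late pupa minor replicate 1 at 116 (5.21 ± 0.78 SE, adjusted p = 0.00019 in limma). CFLOG008799.1 differed by -8.24 ± 0.8 between larvae and early pupa (SE, limma adjusted p = 9.3e-06) and by -7.95 ± 0.73 between adults and late pupae. Its instar 1 levels, 151 and 405 RPKM, were nonetheless above those of late pupa major.

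The comparisons also differed from each other. A test of the difference, larvae minus early pupa against adults minus late pupae, called 1131 genes on the deposited scale: 444 with the larval difference above the adult one (4.21%) and 687 below (6.51%). Under both scalings there were 409 (3.88%) and 633 (6.0%), and after rescaling 818 (7.96%) and 867 (8.43%). The 4 genes named for the largest difference follow. CFLOG005200.2 (12.23 ± 0.57 SE, limma adjusted p = 2.7e-08) separated adults from late pupae alone: larvae, at 7.02 to 48.2 RPKM, differed from early pupa by 0.56 (limma adjusted p = 0.41). CFLOG000597.1 (12.08 ± 1.17 SE, limma adjusted p = 9.8e-06) was higher in larvae than early pupa by 8.85 and lower in adults than late pupae, at -3.23 (adjusted p = 0.0072). CFLOG002738.2 (-9.59 ± 0.88 SE, limma adjusted p = 5.8e-06) separated adults from late pupae by 9.67, with a larval difference of 0.09 (adjusted p = 0.95). CFLOG010137.2 (-9.39 ± 1.08 SE, limma adjusted p = 5.1e-05) held 49894 and 34293 RPKM in early pupa and 1.44 to 47.6 in larvae, with a difference of -11.68 between them (adjusted p = 2.8e-07 in limma). Between adults and late pupae it differed by -2.29 (limma adjusted p = 0.029), and late pupa major replicate 2 (4.84 RPKM) lay apart from the other late pupae (71.3 to 76.6).

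Genes lower in the feeding stages took up much of the pupal RPKM total. The 713 lower genes made up 45.4% to 56.4% of the total in the pupal libraries and 1.98% to 4.58% in the feeding ones. Without the 5 most abundant of them the shares were 17.7% to 30.4% and 1.95% to 4.55%. The 1814 higher genes made up 5.82% to 8.37% in the pupal libraries and 29.7% to 46.8% in the feeding ones. These shares describe lists chosen on the same libraries. Shares can also be read in libraries outside the comparison that chose a list. Their levels did not enter its difference. They did enter the common fit, the filter and the scaling, so they are not fully independent of the choice. In adults, the genes higher in larvae than early pupa made up 15.5% and 16.8% (minor) and 15.7% (male) of the total, and in the late pupae 3.13% to 4.39%. Those lower in larvae took 2.71% to 3.48% in adults and 11.7% to 12.8% in late pupae. The genes higher in adults than late pupae took 13.9% to 15.7% in larvae and 6.56% and 6.73% in early pupa, and those lower in adults took 11.0% to 22.9% in larvae and 44.0% and 42.0% in early pupa. In each of the 4 lists the feeding and pupal libraries did not overlap in these shares. With the 5 most abundant genes of each list left out they still did not, and the adult-lower list then took 4.15% to 8.97% in larvae and 19.8% in each early pupa library.

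**Figure D5:**
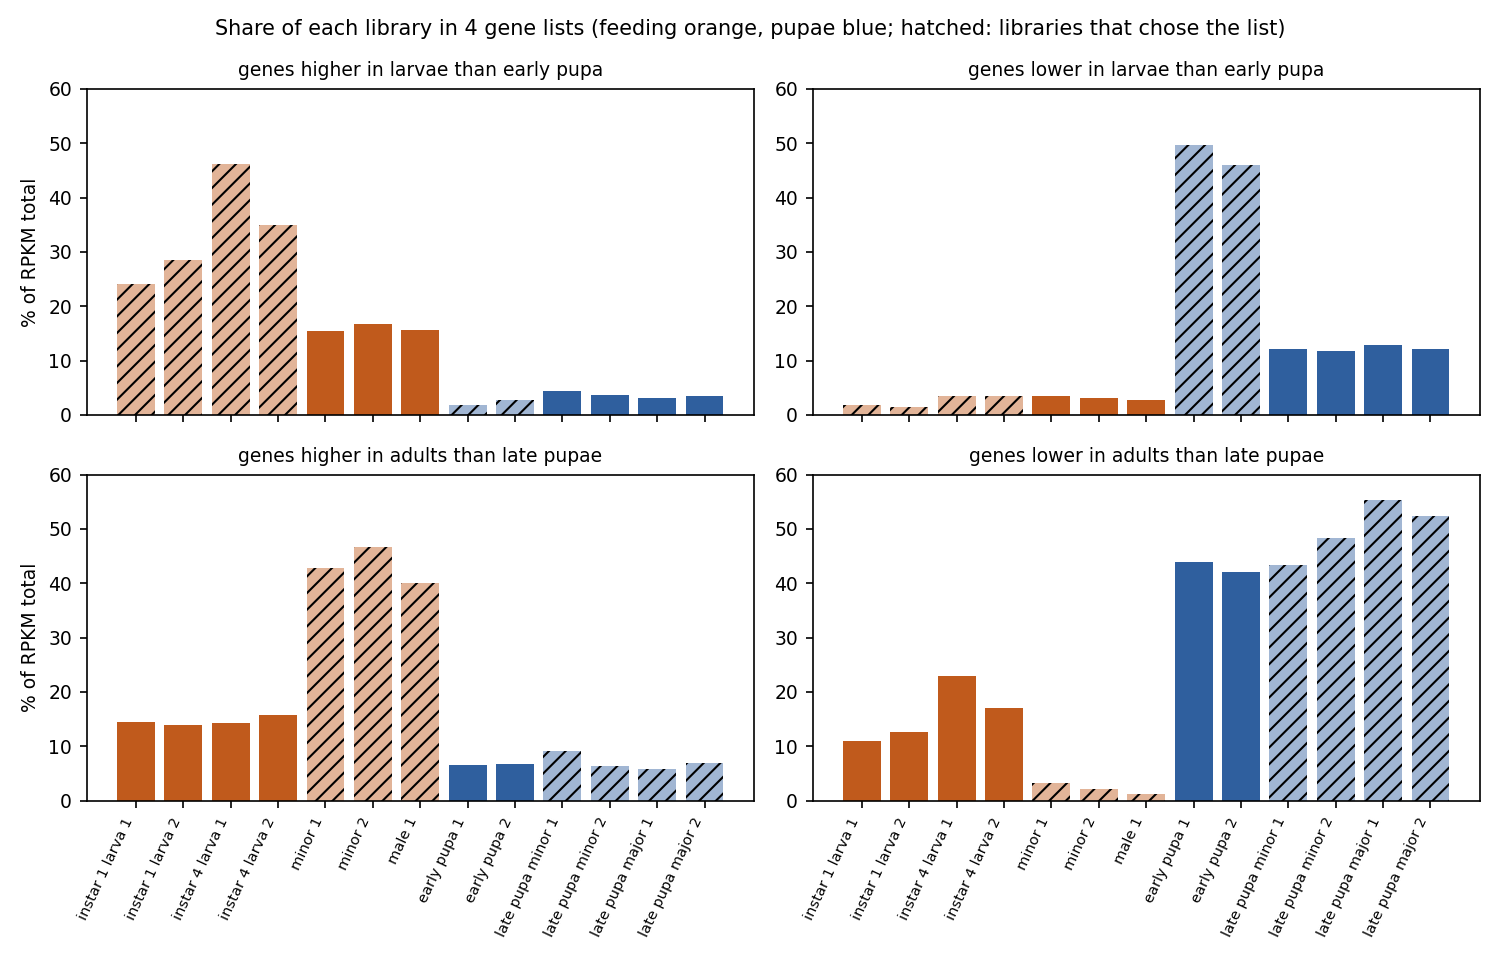
Share of each library's RPKM total (y axis, %) taken by 4 gene lists, in feeding libraries (orange) and pupal libraries (blue). Hatched bars are libraries of the comparison that chose the list. Plain bars are libraries outside that comparison, which still entered the common fit. Among plain bars the larval-higher genes take 15.5% to 16.8% in adults against 3.13% to 4.39% in late pupae, and the adult-lower genes 11.0% to 22.9% in larvae against 44.0% and 42.0% in early pupa.

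The pupal libraries were also more concentrated. The 50 most abundant genes of a library took 55.4%, 53.3% and 56.0% of its RPKM total in early pupa, late pupa minor and late pupa major (stage means), against 35% in instar 1 larva, 46.8% in instar 4 larva, 34.0% in minor and 23.9% in male. The stages did not overlap. The mean over stages was 34.9% ± 9.37 (SD, n = 4) for feeding and 54.9% ± 1.42 (SD, n = 3) for pupae, a difference of -20.0 percentage points (two-sided exact permutation test over stage means, p = 0.0571, the smallest that 35 arrangements allow). For the 10 most abundant genes the means were 16.8% and 39.9%. The number of genes at 1 RPKM or more was 8595 ± 1151 (SD, n = 4) in feeding stages and 8260 ± 325 (SD, n = 3) in pupae (exact permutation test, p = 0.6), and after rescaling it was lower in the feeding stages by 302 (p = 0.143, same exact test).

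Larvae were closer to early pupa than to the adults. Taken over genes rather than over replicates, rescaled stage means correlated at 0.91 between the larval instars and at 0.895 between minor and male. Larvae and adults, though both feed, correlated at 0.724 to 0.772, while larvae and early pupa did so at 0.801 (instar 1) and 0.808 (instar 4). Pairs of 1 feeding and 1 pupal stage had a median of 0.746 over 12 pairs, pairs of feeding stages 0.766 over 6, and pairs of pupal stages 0.821 over 3. All stages share the scaling and the same genes, so these values are a description.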

How the data were processed

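Poly(A) RNA was extracted from whole bodies with TRIzol, cleared of DNA, and made into libraries that keep the strand (dUTP), per the labels' protocols. The notes of the submitters on processing list STAR 2.5.0b and DESeq2 without a stated role. Build, annotation and counting method were not given in the sources used here. All values were deposited by the authors as RPKM, per the labels and the values themselves. Of the 18979 IDs, 18620 begin with CFLOG and 359 with XLOC. All columns were matched to samples by their names (0 without a sample).

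Depth was recovered from the read steps of 7464 genes. For the 7128 of them with a length under 3000 nt, 99.9% of the lengths came out whole within 0.1. The floor of 3 reads covers counting error only, since PCR copies are counted as reads. No count test was run.

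Differences were tested with limma 3.58.1 (R 4.3.3) on log2(RPKM + 1), a scale computed here from the deposited values, which understates the change of low genes. The fit held the 13 libraries with 1 term per group, and the empirical Bayes step used a trend. A gene entered with 1 RPKM or more in 2 or more of the 13 libraries (10551 genes, and 10282 after rescaling). Tests were two-sided with Benjamini-Hochberg adjustment over all genes kept and a threshold of 0.05, and SEs are limma's. For rescaling, a library's factor was the median, over 10022 genes above 0 in all 13 libraries, of its ratio to the gene's geometric mean. Factors lay between 0.553 (instar 4 larva replicate 1) and 2.073 (instar 1 larva replicate 1). The tests were tried on simulated data first. Stage means of library measures were compared by exact permutation.

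Named genes are IDs only, at most 2 higher and 2 lower per comparison, of the largest difference among genes called under both scalings. For the comparison over all stages they had also to show no overlap of the 7 and 6 libraries on the deposited scale. For the pair of comparisons without shared libraries the smaller of both differences was ranked. This gave 19 genes. Alternatives were the scaling, a pseudocount of 0.1, no filter, the replicate number as a block, embryo in the fit, other estimates of spread, and each stage or library left out. The comparison and the lists were chosen with earlier results of these data known.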

Additional observations from a re-analysis of the deposited data

Results flagged for a closer look

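Within the 7 feeding or 6 pupal libraries, a Dixon test of the named genes of the comparison over all stages and of the shared genes (6 genes), and of 3 library measures, marked 6 single libraries in 18 tests, where chance marks about 1 in 20 groups. These libraries mix stages, so a library can stand apart because its stage does. Among the pupae, late pupa minor replicate 1 was high for CFLOG000610.2 (34.2 RPKM, others 0.936 to 12.1) and for CFLOG003566.2 (116 RPKM, others 0.487 to 7.61). Early pupa replicate 1 was high for CFLOG001169.1 (45.7 RPKM, others 2.56 to 12.1) and for CFLOG027766.1 (1848 RPKM, others 241 to 724). Among the feeding stages, male was high for CFLOG003566.2 (1455 RPKM, others 98 to 381) and instar 1 larva replicate 2 for CFLOG008799.1 (405 RPKM, others 0 to 151).

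A limma test of the difference between larvae against early pupa and adults against late pupae called 1131 genes on the deposited scale. The named ones were CFLOG005200.2 (12.23) and CFLOG000597.1 (12.08), with the larval difference above the adult one, and CFLOG002738.2 (-9.59) and CFLOG010137.2 (-9.39), with it below (log2 units).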

How the results depend on the processing

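Of the counts and library measures, 266 recomputed values moved by less than 1.5 times in total or, for measures, kept direction and call, 32 counts moved by over 1.5 times, 1 measure passed its threshold and 1 reversed. Among named genes 655 recomputed differences kept direction and call, 1 lost its call (CFLOG001169.1, 4.88, under 1 mean per stage with rescaling) and 0 reversed. The difference in the share of the 50 most abundant genes was -18.4 percentage points (exact permutation over libraries, p = 0.00117), but libraries of a stage are not independent. The difference in genes at 1 RPKM or more reversed to -302 after rescaling.

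Total calls for feeding stages against pupae (4410) were 936 with a 2-class fit (1109 rescaled) and 219 with 1 mean per stage (132 rescaled). They were 2616 without instar 1 larva, 2831 without late pupa major (2848 rescaled) and 4301 without early pupa (2869 rescaled), beside 3529 rescaled with all stages. Higher genes under both scalings fell to 432 and 37 with these fits of the spread and lower genes to 258 and 56. Median-ratio scaling gave 2757 calls for instar 1 larva (6749 deposited), 2725 for instar 4 larva (1373), 4698 for minor (2868) and 1917 for male (3049). Genes without overlap (398) were 1417 without instar 4 larva, 815 without early pupa and 638 without late pupa minor.

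Leaving out 1 library gave 3076 to 5478 calls for feeding stages against pupae, 3781 to 7174 for instar 1 larva, 981 to 1640 for instar 4 larva, 1669 to 3494 for minor, 2263 to 3793 for male, 597 to 2125 for larvae against early pupa, 2241 to 3944 for adults against late pupae, 589 to 1906 for the difference of these, and 404 to 959 without overlap. Genes higher in both comparisons without shared libraries ran from 165 to 402 and lower ones from 91 to 226. Under both scalings 1392 to 2055 genes were higher in feeding stages and 558 to 864 lower. The low ends came without early pupa replicate 1 or 2 for larvae against early pupa (603 and 597) and for the difference (589 and 715), without either instar 1 library for that stage (3781 and 3992), and without minor replicate 2 for minor. The high end of the difference (1906) came without instar 4 larva replicate 2. The majority turned, on the deposited scale, for instar 4 larva without its replicate 1 (1030 higher, 346 lower), for minor without its replicate 1 (949 higher, 1550 lower), and for the difference of the comparisons without shared libraries without male (523 higher, 457 lower). Rescaling turned it for larvae against early pupa (1020 higher, 1102 lower) and for instar 1 larva (1228 higher, 1529 lower), and, for feeding stages against pupae, with a 2-class fit (483 higher, 626 lower), 1 mean per stage (40 and 92), no minor stage (1476 and 1531) or no early pupa stage (1388 and 1481). Leaving out single libraries after rescaling turned it too. Feeding stages against pupae turned without early pupa replicate 2 or instar 4 larva replicate 2. They also turned without late pupa minor replicate 2 or late pupa major replicate 1. Instar 4 larva turned without its replicate 1 or either minor library. The difference of the comparisons turned without early pupa replicate 1 or minor replicate 2. The cause was not tested.

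With the replicate number as a block 3857 genes were called (3169 higher, 688 lower). The labels do not state whether the numbers pair the samples. Over 15 pairs of groups the deviations of same-numbered samples correlated at -0.37 to 0.143, over 0.1 in 2. With 2 libraries in each of these groups, such values cannot decide whether samples were paired. The block moved no count by over 1.5 times. Depth limits low values: 3 reads on a gene of 1000 nt are up to 0.177 RPKM.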

Other observations

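The embryo libraries took no part in the tests of the report (1 alternative fit held them), and their position can be read beside the genes that separated feeding stages from pupae. For 66 of the 87 genes in which every feeding library lay below every pupal library (75.9%), both embryo libraries lay below all 6 pupal libraries too, beside 4.15% of all tested genes. Over all 713 lower genes this held for 193 (27.1%). The embryo mean was nearer to the feeding than to the pupal mean in 74.7% of the 87 genes, 52.2% of the 713 and 74.6% of all tested genes. For the 168 genes of the opposite kind, both embryo libraries lay above all pupal libraries in 142 (84.5%). The share over all tested genes was 59.2% on the deposited scale, where the embryo libraries were high for most genes. The 87 and 168 genes were chosen for pupal libraries beyond every feeding library. A library outside that choice can fall on the feeding side by the choice alone, so all tested genes are no matched background for these counts. CFLOG001170.2 stood at 1.87 and 2.81 RPKM in embryo and CFLOG027766.1 at 9.94 and 5.91, both under every pupal library. CFLOG000610.2 stood at 7.5 and 352 RPKM, so the embryo libraries lay on both sides of the highest pupal value of 34.2.

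Late pupa minor replicate 1 held the highest pupal level in more of the higher genes than any other pupal library, 559 of the 1814 after rescaling (30.8%), beside 17.6% of all tested genes, and the 1814 genes took 8.37% of its RPKM total against 5.82% to 6.68% in the other pupae. Among the feeding libraries, minor replicate 2 held the highest level in 751 of them (41.4%, beside 25.7% of all tested genes).

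Late pupa major replicate 2 had the lowest pupal level of several genes that were abundant at another stage. It was listed at 0 for CFLOG000597.1 (27.4 to 70.4 RPKM in the other pupae) and CFLOG000609.2 (0.844 to 3.24), was at 0.0537 RPKM for CFLOG002090.2 (5.31 to 14.3) and at 4.84 RPKM for CFLOG010137.2 (71.3 to 76.6 in the other late pupae). These were noticed after the values were seen.

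IDs with the prefix XLOC took 0.481% ± 0.154 (SD, n = 4) of the RPKM total in feeding stages and 0.271% ± 0.0675 (SD, n = 3) in pupae (exact permutation test over stage means, p = 0.0857). They made up 46 of the 1814 higher genes (2.54%), 20 of the 713 lower genes (2.81%) and 2.88% of all tested genes.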
